A study of Mus musculus with 22 samples.

Results

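The last sampled step of direct cardiac reprogramming was the change between day 10 and day 14 in fibroblast cultures carrying Mef2c, Gata4 and Tbx5. It was read from 4 of the 22 arrays of the series, chosen by their labels: the 2 arrays of the day 14 MGT group and the 2 arrays of the day 10 MGT group. The cells were cardiac fibroblasts (CF) of CD1 mice of the aMHC-GFP genotype, whose green fluorescent reporter is driven by the Myh6 (cardiac myosin) promoter. MGT cultures were infected with a retrovirus that carries Mef2c, Gata4 and Tbx5 as 1 polycistronic transgene, and the lacZ cultures set beside them carried bacterial beta-galactosidase in place of the factors. All groups shared the strain and the reporter, and the MGT and lacZ groups shared a viral infection as well; the labels name no virus for the day 0 CF cultures, which appear only in the plot over the course. The labels describe no cell sorting, and in bulk RNA of a culture fewer cells of a type and less RNA per cell cannot be told apart. They name neither the animals, their age and number, nor the cultures behind the 2 arrays of a group. The p-values therefore measure only the spread between arrays of the same group, pooled over all 11 groups in the fit. That spread may be technical. Levels are log2 intensities relative to the 75th percentile of their own array, and all differences are day 14 minus day 10 on that log2 scale unless another pair is named. A gene was called when limma's adjusted p was under 0.05.

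Mef2c, Gata4 and Tbx5 are transcription factors of the developing heart that together switch part of a fibroblast population to a muscle programme, giving induced cardiomyocytes. The programme includes the sarcomere, the contractile lattice of myosin, actin and troponin, the channels and pumps that move calcium at each beat, and a large supply of mitochondria. Fibroblasts that do not convert go on making collagen and other matrix, and primary heart cultures also hold macrophages and other cells of the heart that can multiply over the weeks of culture.

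Between day 10 and day 14 in MGT cultures 14 of 19 macrophage markers rose, with a median difference of 1.62. Of 17 hypoxia genes 12 rose and of 50 cell cycle genes 17 rose, while 18 of 30 genes of cholesterol and lipid synthesis and 12 of 28 cardiac transcription factors fell. These list counts are those of the main fit and moved under the alternatives described at the end. Myh6 and Tnnt2, which encode cardiac myosin and troponin T, had differences of 0.00, with standard errors of 0.14 and 0.12. Of 18054 genes tested, 6109 were called (33.8%), 3422 of them higher at day 14 (19% of the genes tested) and 2687 lower (14.9%). The counts of each gene list below stand against these shares, and those of the lacZ step against 15.9% higher and 10.9% lower. With a size of at least 1 log2 unit, 772 genes were higher (4.28%) and 408 lower (2.26%), and the median difference over all genes was 0.04. The 2 day 14 levels lay wholly above or wholly below the 2 day 10 levels in 13921 of 18042 genes (77.2%), so groups that do not overlap are the usual case here. The step also spans a change of slide and scan date: both day 10 groups lay on slide 2, day 14 MGT on slide 4 alone and day 14 lacZ on slide 3, with slides 3 and 4 scanned on another day than slide 2. Day and slide therefore cannot be told apart in any comparison of day 14 with day 10. The day 14 MGT arrays had 71.0% and 68.9% of their spots well above background, against 55.3% and 59.6% on the day 10 MGT arrays, and a median local background of 24.5 and 24 intensity units against 59 and 48. In all 1389 genes passed from below background on both day 10 arrays to above it on both day 14 arrays, and 14 went the opposite way. The 7 spike-in RNAs that were well above background on every array were all higher at day 14 than at day 10 in MGT cultures, by 0.11 to 0.89 with a median of 0.53. They were higher by a median of 1.01 in the lacZ step and of 0.42 between MGT day 7 and day 10 on 1 slide. The amounts added are not given in the sources used here and the 7 differed among themselves, so they were not used as a scale. Of the 3422 genes called higher in the MGT step 1652 rose by more than the spike-ins' median (48.3%). Counts of rises above that median are description only. They were made for the MGT step alone, and no cause was tested with them.

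**Figure D1:**
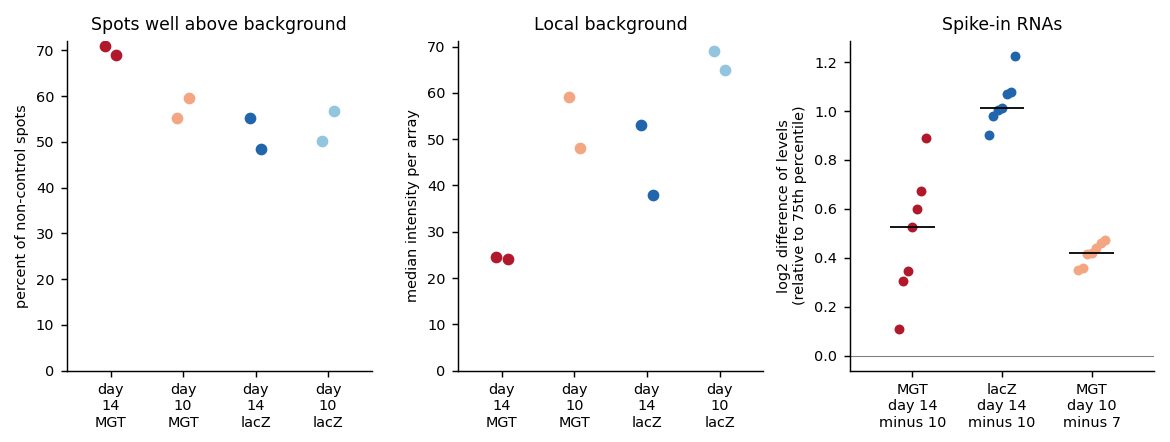
Array measures behind the step. Points are arrays for the percent of non-control spots well above background (left) and the median local background in intensity units (middle), and spike-in RNAs for the log2 difference of their levels (right, line at the median); the day 14 MGT arrays have the most spots above background and the lowest local background of the 8 arrays.

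The same days in lacZ cultures gave 4840 calls (26.8% of the genes tested), 2865 higher (15.9%) and 1975 lower (10.9%). This comparison shares no array with the MGT step. Of the genes called higher in the MGT step 1766 were also called higher in the lacZ step, which is 51.6% of the MGT list and 61.6% of the lacZ list, and 20 were called lower there. Of those called lower in the MGT step 1125 were also called lower in the lacZ step, which is 41.9% of the MGT list and 57.0% of the lacZ list, and 42 were called higher there. The difference of the 2 steps, tested in the same model, called 335 genes (1.86%), 117 with the higher value in the MGT step (0.648%) and 218 with the lower (1.21%). Day 14 MGT lay on slide 4 and day 14 lacZ on slide 3, so vector and slide cannot be told apart in this difference. The lacZ arrays were noisier, with a median absolute difference between replicates of 0.264 at day 14 and 0.185 at day 10, against 0.0757 and 0.0990 in the MGT groups of those days. The second day 14 lacZ array was dim, with a 75th percentile signal of 729 intensity units against 1597 on the first. It had 48.4% of its spots well above background, the lowest share in the series, against 55.2% on the first. The lacZ step and the difference of the steps both rest on this array.

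**Figure D2:**
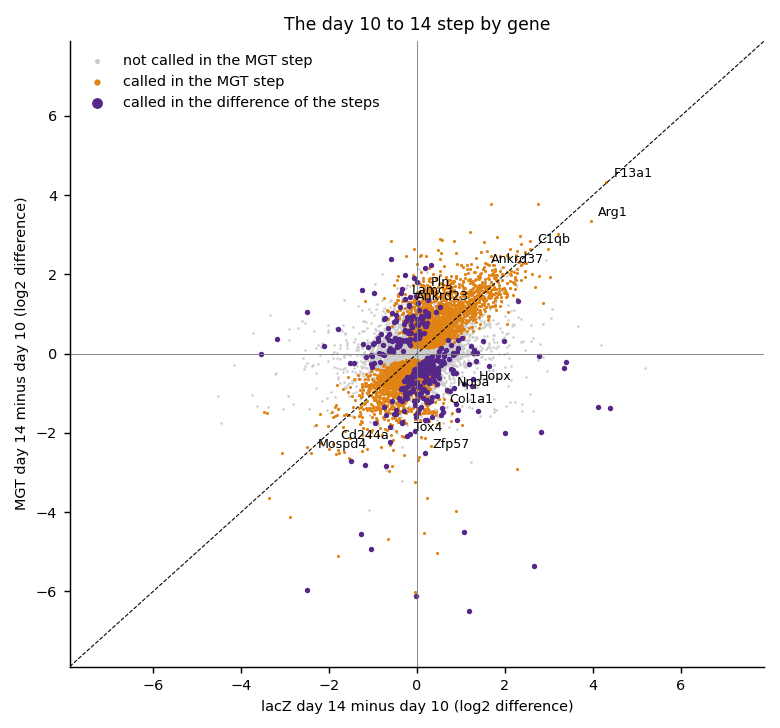
The MGT step (vertical axis) against the lacZ step (horizontal axis) by gene, both as log2 differences of day 14 minus day 10, with a dashed line of equal steps. Orange points were called in the MGT step and purple points in the difference of the steps; F13a1 and Arg1 lie far out on the line, Col1a1, Nppa and Hopx below it and Ankrd23 above it.

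**Figure D3:**
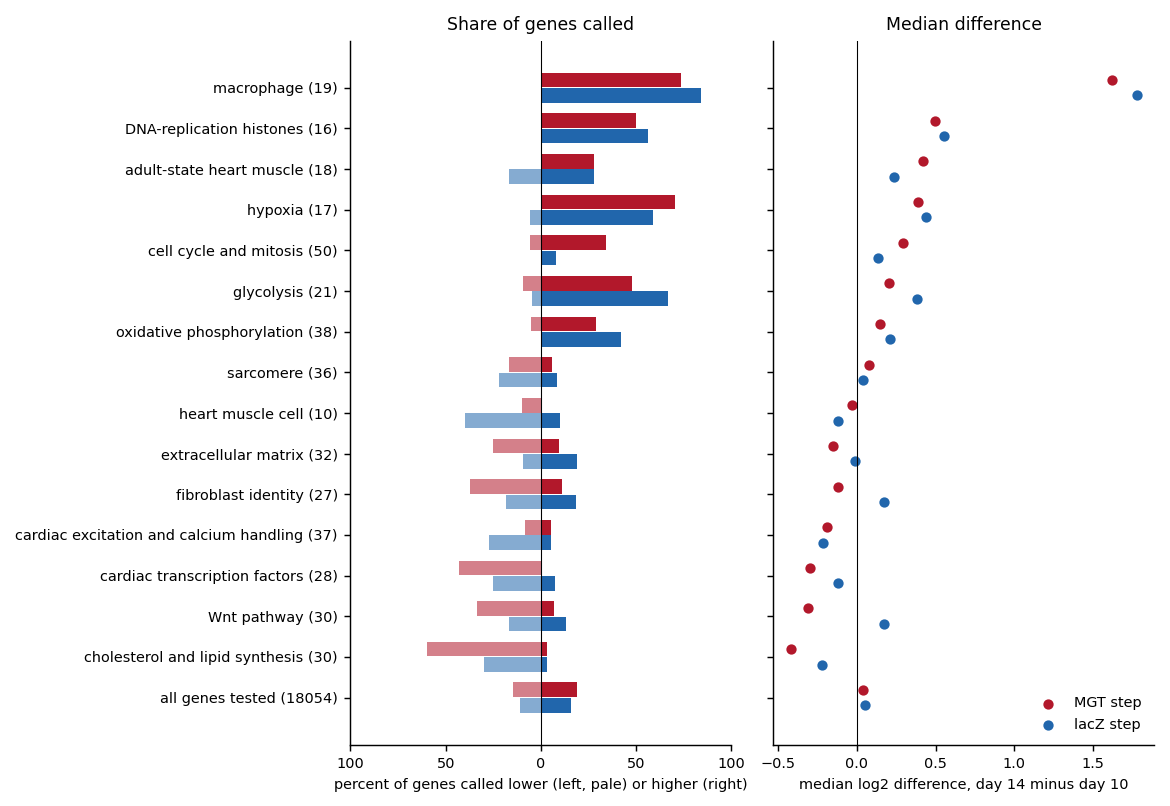
Percent of each list's measured genes called lower or higher (left panel) and median log2 difference of the list (right panel), day 14 minus day 10, in the MGT step and in the lacZ step. The number measured stands after each name; the macrophage list has the highest median in either step, 1.62 in MGT and 1.78 in lacZ cultures.

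Of the 19 measured members of the macrophage marker list 14 rose (73.7%), against 19% of all genes tested, 0 fell and all were well above background on the 4 arrays, with a median difference of 1.62. C1qb, a chain of the complement protein C1q that macrophages secrete, stood at 3.15 and 3.43 at day 14, against 0.52 and 0.76 at day 10 in MGT cultures, a rise of 2.65 ± 0.45 (SE, adjusted p = 0.000954). Its partner chains C1qa and C1qc rose by 2.28 and 2.31. Spi1, which encodes the master regulator PU.1 of the myeloid lineage, rose by 2.25, and Csf1r, the receptor for the growth factor that macrophages depend on, rose by 1.35. Adgre1, the F4/80 antigen, rose by 1.16, Cx3cr1, the fractalkine receptor, by 1.98, and Ptprc, the pan-leukocyte antigen CD45, by 1.35. The call of Ptprc was lost without any 1 of the 4 arrays (adjusted p up to 0.114), and that of Adgre1 in 3 of these 4 cases (up to 0.0603).

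Of the 12 largest rises among genes measured on all 4 arrays 1, that of C1qb, belongs to the macrophage list, and the others were chosen by their size alone. F13a1, the A subunit of coagulation factor XIII, which resident macrophages make, had levels of 3.86 and 3.61 on the day 14 MGT arrays, against -0.77 and -0.41 on the day 10 MGT arrays. The rise was 4.33 ± 1.11 (SE, adjusted p = 0.0102), the largest of the 12, and a second probe of the gene gave 3.91. The SD of F13a1 was 0.17 in day 14 MGT and 0.25 in day 10 MGT, but 3.75 in day 10 lacZ, which enters the same SE. Arg1, arginase 1, an enzyme of alternatively activated macrophages, had levels of 0.40 and 0.96 on the day 14 MGT arrays, against -3.01 and -2.32 on the day 10 MGT arrays. Its difference was 3.34 ± 0.84 (SE, adjusted p = 0.00917), and neither gene's groups overlapped. Both lost their call when 1 array was left out, F13a1 without the first day 14 or the first day 10 array (adjusted p up to 0.0552) and Arg1 without the second day 14 or the first day 10 array (up to 0.0649). Gpr34, a lysophospholipid receptor of macrophages and microglia, had levels of -0.09 and 0.04 on the day 14 MGT arrays, against -3.17 and -2.91 on the day 10 MGT arrays. The rise in Gpr34 was 3.01 ± 0.97 (SE, adjusted p = 0.0302), and its call was lost without any 1 of the 4 arrays (adjusted p up to 0.117). Apoc2, an apolipoprotein that activates lipoprotein lipase, rose by 2.78 ± 0.63 (SE, adjusted p = 0.00539) and Fcrls, an Fc receptor-like protein of resident macrophages, by 2.64 ± 0.59 (SE, adjusted p = 0.00499). Cd74, the invariant chain of class II antigen presentation, rose by 2.56 and Ms4a4a, a membrane protein of macrophages, by 2.46, whose call was lost likewise (up to 0.130). Hpgd, which breaks down prostaglandins, rose by 2.42 ± 0.29 (SE, adjusted p = 0.000105), and St8sia4, a polysialyltransferase, by 2.38. Ndufa4l2, a mitochondrial protein induced by hypoxia, is also among the 12 and is described with that response.

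In the lacZ step 16 of the 19 macrophage markers rose and 0 fell, with a median of 1.78, and the difference of the steps called 1 of the 19, against 1.86% of all genes tested; it was the lysozyme gene Lyz1, at -1.28. F13a1 differed by 4.31 (adjusted p = 0.0133) in the lacZ step, Arg1 by 3.95 (adjusted p = 0.00488) and C1qb by 2.56 (adjusted p = 0.00167). C1qb had levels of 3.55 and 4.08 on the day 14 lacZ arrays, against 0.30 and 2.20 on the day 10 lacZ arrays, with the 2 day 10 lacZ arrays far apart. The sum of the 19 markers, each taken on the linear scale, stood at 8.73 and 8.87 (log2) on the day 14 MGT arrays, against 7.87 and 7.95 on the day 10 MGT arrays. All 14 markers that rose did so by more than the spike-ins' median difference. Mrc1, the mannose receptor, missed the threshold at 2.34 ± 0.91 (SE, adjusted p = 0.0639). Over the whole course in MGT cultures C1qb had mean levels of 0.48 on day 3, -1.81 on day 5, then -0.38 by day 7, 0.64 by day 10 and lastly 3.29 by day 14.

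**Figure D4:**
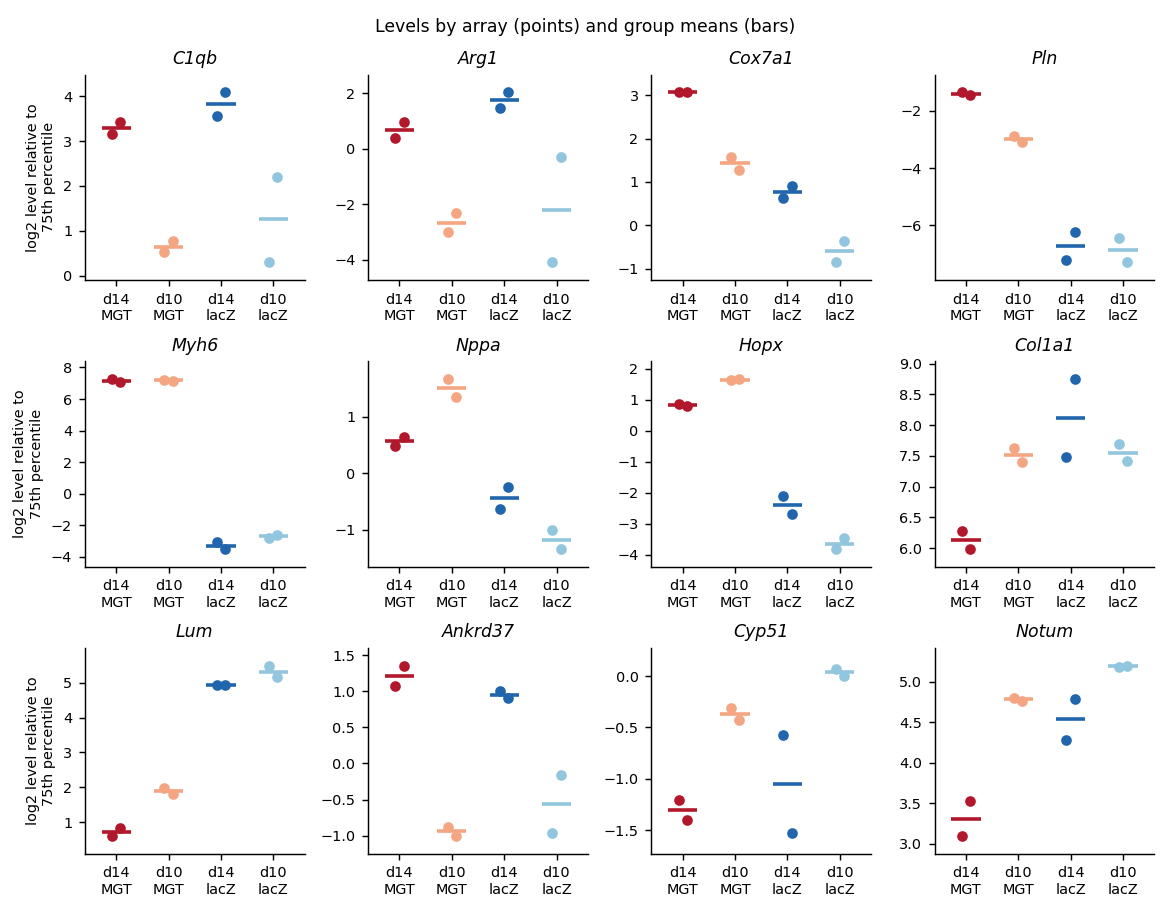
Levels of 12 genes by array (points) with group means (bars), as log2 intensity relative to the array's 75th percentile, in day 14 MGT, day 10 MGT, day 14 lacZ and day 10 lacZ cultures. C1qb, Arg1 and Ankrd37 are higher at day 14 with either vector, and Nppa, Hopx and Col1a1 are lower at day 14 in MGT cultures.

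Markers of other non-muscle cells gave fewer calls. Of 14 endothelial markers 4 were called higher and 2 lower, but 1 of each was below background on all 4 arrays. Pecam1, the CD31 antigen, rose by 0.43 and Flt1, a receptor for vascular endothelial growth factor, fell by 0.48. The summed level of the 14 was 4.48 and 4.53 (log2) at day 14, against 4.84 and 4.72 at day 10. Of 7 markers of T and B cells 2 were called higher, both of them below background on both day 10 arrays, and Cd4, a T cell coreceptor, fell by 1.71. Of 7 glial and nerve markers 3 rose, of 7 pericyte markers 2 fell and of 11 epicardial and mesothelial markers 2 fell, Wt1 by 0.46 and Lrrn4 by 0.90. None of the 5 measured red blood cell genes was above background on all 4 arrays.

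Of 10 heart muscle cell markers, all above background on the 4 arrays, 0 rose and 1 fell, with a median of -0.03, and their summed level was 9.57 and 9.48 at day 14, against 9.64 and 9.58 at day 10. Myh6, the fast cardiac myosin whose promoter drives the reporter, had levels of 7.26 and 7.09 on the day 14 MGT arrays, against 7.21 and 7.14 on the day 10 MGT arrays, a difference of 0.00 ± 0.14 (SE, adjusted p = 0.991). Tnnt2, cardiac troponin T, had levels of 8.01 and 7.96 on the day 14 MGT arrays, against 8.02 and 7.95 on the day 10 MGT arrays, a difference of 0.00 ± 0.12 (SE, adjusted p = 0.995). The sign of both differences turned with the scaling, and Tnnt2 was called at 0.25 under quantile normalization. Myh7, the slow cardiac myosin, differed by 0.34 ± 0.20 (SE, adjusted p = 0.21) and Actn2, the Z-disc alpha-actinin, by 0.85 ± 0.35 (SE, adjusted p = 0.0776), and neither passed. In the lacZ step Myh6 fell by 0.57 and Tnnt2 by 0.80, and of these the difference of the steps called Tnnt2, at 0.80 ± 0.16 (SE, adjusted p = 0.0317). Over the course Myh6 had mean levels of 2.31 on day 3, 3.11 on day 5, then 6.31 by day 7, 7.18 by day 10 and lastly 7.17 by day 14 in MGT cultures.

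**Figure D5:**
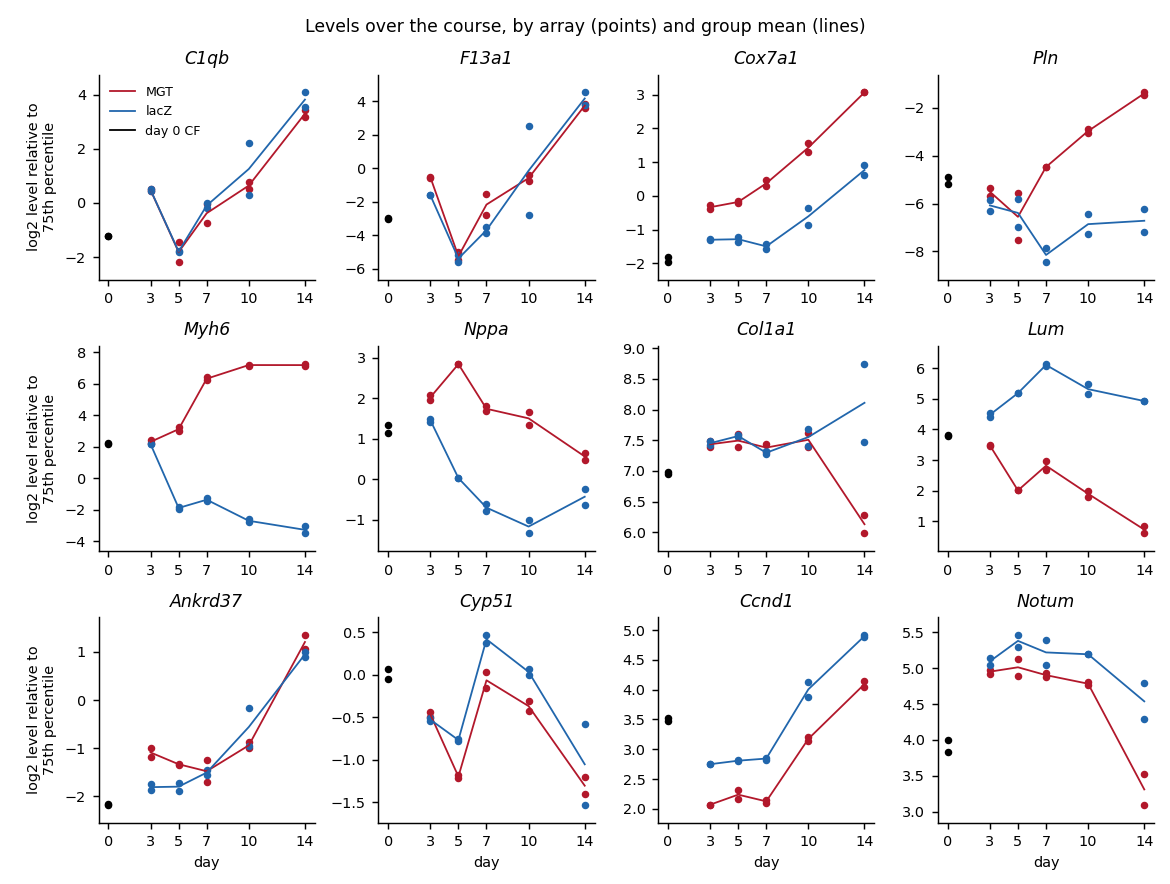
Levels of 12 genes from day 0 to day 14, as log2 intensity relative to the array's 75th percentile, by array (points) and group mean (lines), in MGT, lacZ and day 0 CF cultures. Days 3 and 5 lie on slide 1, days 7 and 10 on slide 2, day 0 and day 14 lacZ on slide 3 and day 14 MGT on slide 4; Myh6 reaches its level by day 10, while C1qb, F13a1, Cox7a1, Ankrd37 and Ccnd1 climb on to day 14.

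Within the longer sarcomere list 2 of 36 measured genes rose and 6 fell, with a median of 0.08. Myoz2, calsarcin 1, a Z-disc protein that binds calcineurin, had levels of 1.39 and 1.34 on the day 14 MGT arrays, against 0.37 and 0.46 on the day 10 MGT arrays. The rise in Myoz2 was 0.95 ± 0.09 (SE, adjusted p = 3.04e-05), and the difference of the steps called it at 0.71 ± 0.13 (SE, adjusted p = 0.0221). Tnnc1, troponin C of slow and cardiac muscle, also rose, by 0.53. Myh7b, a slow-type myosin that carries a muscle microRNA in its intron, had levels of 1.39 and 1.08 on the day 14 MGT arrays, against 2.50 and 2.33 on the day 10 MGT arrays. The fall in Myh7b was -1.18 ± 0.24 (SE, adjusted p = 0.00287). Myl3, the essential light chain of ventricle and slow muscle, fell by 0.90 and Tnni1, the slow skeletal troponin I of the embryonic heart, by 0.75. Ldb3, Tpm1 and Pdlim5, which encode a Z-disc protein, alpha-tropomyosin and another Z-disc protein, were called lower by 0.59, 0.43 and 0.41, but over the mean of their probes Ldb3 and Tpm1 had differences of 0.013 and 0.038. Among 23 skeletal muscle genes 5 rose and 2 fell, with Tnni2 and Tnnt3, troponins of fast skeletal muscle, up by 1.34 and 0.93, and Acta1, skeletal alpha-actin, down by 0.80. Myod1 and Pax7, regulators of skeletal muscle and its stem cells, were called higher as well, with Myod1 above background on 1 day 10 array and Pax7 on 0.

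Of 18 measured adult-state genes 5 rose and 0 fell, with a median of 0.42. Of 18 fetal-state genes 1 rose and 4 fell, with a median of -0.20, whose sign changed under 1 of the 15 alternatives. In each list 27.8% were called in either direction, against 33.8% of all genes tested. The lacZ step gave 5 rises and 3 falls in the adult-state list, and 1 rise and 3 falls in the fetal-state list. The difference of the steps called 1 gene of each list, with the lower value in the MGT step. Cox7a1, the heart and muscle isoform of a cytochrome c oxidase subunit, had levels of 3.07 and 3.07 on the day 14 MGT arrays, against 1.58 and 1.29 on the day 10 MGT arrays. The rise in Cox7a1 was 1.64 ± 0.15 (SE, adjusted p = 1.73e-05). Cox8b and Cox6a2, muscle isoforms of other subunits of the same enzyme, rose by 1.40 ± 0.16 (SE, adjusted p = 8.70e-05) and 0.57 ± 0.11 (SE, adjusted p = 0.00223). All 3 rose in the lacZ step too, by 1.37, 0.63 and 0.46. Pln, phospholamban, which restrains the pump that returns calcium to its store, had levels of -1.35 and -1.45 on the day 14 MGT arrays, against -2.87 and -3.07 on the day 10 MGT arrays. It rose by 1.57 ± 0.55 (SE, adjusted p = 0.0442), just inside the threshold, and lost its call under 6 of the 15 alternatives, with adjusted p up to 0.161. The SD of Pln was 0.07 in day 14 MGT and 0.14 in day 10 MGT, but 1.40 in day 5 MGT, which enters the same SE. In lacZ cultures Pln was below background on all 4 arrays of these days. S100a1, a calcium sensor of the heart, rose by 0.40. On the fetal side Nppa, atrial natriuretic peptide, had levels of 0.47 and 0.65 on the day 14 MGT arrays, against 1.66 and 1.34 on the day 10 MGT arrays. The fall in Nppa was -0.94 ± 0.15 (SE, adjusted p = 0.000545). In lacZ cultures Nppa rose, with levels of -0.63 and -0.24 on the day 14 lacZ arrays, against -1.01 and -1.34 on the day 10 lacZ arrays, and the difference of the steps was -1.68 ± 0.21 (SE, adjusted p = 0.00325). Acta1 and Tnni1 are the falls named above, and Dlk1, a secreted inhibitor of fat cell formation expressed in embryos, fell by 1.34. Igf2, the fetal growth factor, was called higher but lay below background on both day 10 arrays, so no fold is given.

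Of 37 genes of excitation and calcium handling 2 rose and 3 fell, with a median of -0.19. Besides Pln the other rise was Kcnj11, a subunit of the ATP-sensitive potassium channel, which was below background on both day 10 arrays and is given no fold. Atp2a2, the calcium pump SERCA2 that phospholamban restrains, had levels of 4.86 and 4.70 on the day 14 MGT arrays, against 5.25 and 5.14 on the day 10 MGT arrays, and was called lower at -0.41 ± 0.10 (SE, adjusted p = 0.00676) through its brightest probe, but another probe gave -0.09, which was not called, so no direction is given for the gene. Kcnj5, a subunit of the acetylcholine-gated potassium channel of the atria, fell by 0.53 and Gjc1, connexin 45, by 0.34. Ryr2, the calcium release channel, had a difference of -0.44 ± 0.30 (SE, adjusted p = 0.277) and Gja1, connexin 43, one of 0.17 ± 0.10 (SE, adjusted p = 0.197); neither passed.

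Regulators of heart development fell more often than they rose. Of 28 measured cardiac transcription factors 12 fell and 0 rose, with a median of -0.29, against 14.9% of all genes tested called lower. Hey2, a Notch target that marks the ventricle, had levels of -5.63 and -5.62 on the day 14 MGT arrays, against -4.59 and -4.42 on the day 10 MGT arrays. The fall in Hey2 was -1.13 ± 0.18 (SE, adjusted p = 0.000774). Tbx3, a repressor of the working muscle programme in the conduction system, had levels of -0.36 and -0.49 on the day 14 MGT arrays, against 0.48 and 0.48 on the day 10 MGT arrays. The fall in Tbx3 was -0.90 ± 0.14 (SE, adjusted p = 0.000615). Smyd1, a muscle methyltransferase needed for the heart, stood at 0.94 and 0.87 at day 14, against 1.72 and 1.58 at day 10 in MGT cultures, a difference of -0.74 ± 0.25 (SE, adjusted p = 0.034) through its brightest probe whose call was lost under 6 of the 15 alternatives (up to 0.260), and another probe gave -0.25, which was not called. Tbx18, Zfpm2, Tbx20, Tbx2, Meis1, Gata6, Hand2 and Srf fell by between 0.30 and 0.63. Hopx, a homeodomain protein of heart muscle that binds no DNA, had levels of 0.87 and 0.80 on the day 14 MGT arrays, against 1.62 and 1.66 on the day 10 MGT arrays. The fall in Hopx was -0.81 ± 0.16 (SE, adjusted p = 0.0025), and a second probe gave -0.75. In lacZ cultures Hopx rose by 1.24, and the difference of the steps was -2.05 ± 0.23 (SE, adjusted p = 0.00249). In the lacZ step 7 of the 28 factors fell and 2 rose, with a median of -0.12.

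The 3 factors of the transgene themselves showed no rise. Mef2c had levels of 0.06 and -0.06 on the day 14 MGT arrays, against 0.65 and 0.53 on the day 10 MGT arrays, a difference of -0.59 ± 0.52 (SE, adjusted p = 0.405). Gata4 had levels of 2.82 and 2.78 on the day 14 MGT arrays, against 3.07 and 3.01 on the day 10 MGT arrays. The fall in Gata4 was -0.24 ± 0.08 (SE, adjusted p = 0.0413), and its call was lost under 6 of the 15 alternatives, with adjusted p up to 0.179. Tbx5 had levels of -1.68 and -1.81 on the day 14 MGT arrays, against -1.34 and -1.31 on the day 10 MGT arrays, a difference of -0.42 ± 0.25 (SE, adjusted p = 0.208). For Mef2c and Tbx5 the day 14 levels lay wholly below the day 10 levels, while the SE is pooled over all groups in the fit. Their differences were negative under all 15 alternatives, from -0.65 to -0.53 for Mef2c and from -0.54 to -0.36 for Tbx5. Mef2c was called lower under 1 of these alternatives and Tbx5 under 2. The missing calls therefore do not show that these factors were unchanged. Whether the probes of the 3 factors read the transgene, the cells' own transcript or both was not tested.

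The hypoxia response is driven by HIF factors, which are stable when oxygen or its sensing falls short and which bind a short element with the core TACGTG. Of 17 measured hypoxia genes 12 rose and 0 fell, with a median of 0.39, against 19% of all genes tested called higher. The lacZ step gave 10 rises and 1 fall, with a median of 0.44, and 5 of the 12 MGT rises were larger than the spike-ins' median difference. Promoter windows of 300 bases are shown for the member with the largest rise and 2 others that hold the core, 250 bases before to 50 after the start site, from RefSeq on GRCm38.p6, read 5′ to 3′ on the strand of the gene, with the core or its reverse complement CACGTA in capitals. The Ankrd37 window lies at chr8:45999801-46000100 on the minus strand, that of P4ha1 at chr10:59323046-59323345 and that of Car9 at chr4:43506776-43507075, both on the plus strand.
Ankrd37: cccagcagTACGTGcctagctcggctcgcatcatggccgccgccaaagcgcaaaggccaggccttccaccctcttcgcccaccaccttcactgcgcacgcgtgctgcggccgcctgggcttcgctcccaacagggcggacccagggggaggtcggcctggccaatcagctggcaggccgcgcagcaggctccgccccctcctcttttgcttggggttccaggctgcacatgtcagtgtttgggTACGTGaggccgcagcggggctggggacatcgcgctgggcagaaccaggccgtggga
P4ha1: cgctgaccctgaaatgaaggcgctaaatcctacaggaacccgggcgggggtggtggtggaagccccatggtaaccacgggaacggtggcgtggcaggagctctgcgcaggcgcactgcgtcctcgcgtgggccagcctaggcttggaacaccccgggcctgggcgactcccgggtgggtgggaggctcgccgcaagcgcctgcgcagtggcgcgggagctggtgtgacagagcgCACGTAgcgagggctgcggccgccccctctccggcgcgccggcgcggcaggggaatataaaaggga
Car9: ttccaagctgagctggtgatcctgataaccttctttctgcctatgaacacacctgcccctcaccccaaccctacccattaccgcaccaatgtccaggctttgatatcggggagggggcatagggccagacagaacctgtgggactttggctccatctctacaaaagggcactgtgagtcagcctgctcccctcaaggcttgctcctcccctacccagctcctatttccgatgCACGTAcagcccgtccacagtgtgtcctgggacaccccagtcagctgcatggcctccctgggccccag
The core TACGTG was searched on both strands, and a gene was counted when any of its windows held it. It was found in 5 of the 15 measured hypoxia genes with a RefSeq window (33.3%) and in 4 of the 10 called higher (40%). Of all 27025 genes with a window 3.67% held it, and 4.14% of the genes tested that have a window. Among genes with a window it stood in 5.04% of those called higher and 3.23% of those called lower. A match of these letters is a description of the window only. The 2 matches of Ankrd37 begin at -242 and -7 from its start site, that of P4ha1 at -16 and that of Car9 at -18.

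Ankrd37, an ankyrin repeat protein and a direct HIF target, had levels of 1.07 and 1.35 on the day 14 MGT arrays, against -0.88 and -1.002 on the day 10 MGT arrays. Its rise was 2.15 ± 0.21 (SE, adjusted p = 2.61e-05), and the lacZ step gave 1.51 (adjusted p = 0.000409). Bnip3, which triggers the removal of mitochondria under low oxygen, had levels of 5.15 and 5.32 on the day 14 MGT arrays, against 4.26 and 4.30 on the day 10 MGT arrays. The rise in Bnip3 was 0.96 ± 0.11 (SE, adjusted p = 7.14e-05). Pdk1, a kinase that shuts pyruvate out of the mitochondria, had levels of 1.005 and 1.19 on the day 14 MGT arrays, against -0.15 and 0.24 on the day 10 MGT arrays. The rise in Pdk1 was 1.05 ± 0.27 (SE, adjusted p = 0.0095). Car9, the carbonic anhydrase most used as a mark of hypoxia, had levels of -1.80 and -1.56 on the day 14 MGT arrays, against -2.49 and -2.49 on the day 10 MGT arrays. The rise in Car9 was 0.81 ± 0.25 (SE, adjusted p = 0.0263), and its call was lost under 6 of the 15 alternatives (adjusted p up to 0.150). P4ha1, a prolyl hydroxylase of collagen, rose by 0.36, a call lost under 6 alternatives as well (up to 0.241), and Vegfa, the growth factor for vessels, by 0.43. Ndufa4l2, which is not on the list, had levels of 1.70 and 2.12 on the day 14 MGT arrays, against -0.56 and -0.58 on the day 10 MGT arrays. The rise in Ndufa4l2 was 2.48 ± 0.28 (SE, adjusted p = 7.34e-05), with 2.06 (adjusted p = 0.000402) in the lacZ step. Ddit4, an inhibitor of the growth kinase mTOR, stood apart with a difference of 0.21 ± 0.27 (SE, adjusted p = 0.584) in the MGT step and a fall of 0.86 in the lacZ step.

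Of 21 glycolysis genes 10 rose and 2 fell, with a median of 0.20, against 19% of all genes tested called higher and 14.9% lower, and the lacZ step gave 14 rises, 1 fall and a median of 0.38. Slc16a3, the lactate exporter MCT4, rose by 0.92 ± 0.19 (SE, adjusted p = 0.00291), Aldoc, aldolase C, by 0.81 ± 0.19 (SE, adjusted p = 0.00711), and Eno2 and Tpi1, an enolase and triose phosphate isomerase, by 0.73 and 0.71. The 2 falls were those of Eno3, the muscle enolase, by 0.39 and Eno1, the common enolase, by 0.35. Of 38 respiratory chain subunits 11 rose and 2 fell, with a median of 0.15, so that 34.2% were called against 33.8% of all genes tested, and 2 of the 11 rises exceeded the spike-ins' median difference. Cox6b1 had the largest, at 0.79 ± 0.11 (SE, adjusted p = 0.000256), and Ndufa2, a subunit of complex I, rose by 0.54. Fatty acid oxidation had 3 rises and 4 falls among 25 genes, with a median of 0.05 that turned negative under 1 alternative. Ucp3, a mitochondrial carrier of muscle, had levels of 1.15 and 1.31 on the day 14 MGT arrays, against -0.27 and -0.30 on the day 10 MGT arrays. The rise in Ucp3 was 1.51 ± 0.15 (SE, adjusted p = 3.33e-05), and the lacZ step gave 1.19 (adjusted p = 0.000257). Acot2 and Acaa2, a thioesterase and a thiolase of the mitochondrial matrix, fell by 0.49 and 0.45. Ppargc1b and Ppargc1a, coactivators of mitochondrial genes, fell by 1.02 and 0.72, and Slc2a4, the insulin-responsive glucose transporter GLUT4, by 0.69.

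Most genes of cholesterol synthesis fell. Of 30 genes of cholesterol and lipid synthesis 18 fell and 1 rose, with a median of -0.42, against 14.9% of all genes tested called lower. Cyp51, which removes a methyl group from lanosterol, had levels of -1.21 and -1.40 on the day 14 MGT arrays, against -0.31 and -0.42 on the day 10 MGT arrays. The fall in Cyp51 was -0.94 ± 0.21 (SE, adjusted p = 0.00438), and its call was lost with the deposited table (adjusted p = 0.0576). Scd2, a fatty acid desaturase, had a difference of -0.88 ± 0.14 (SE, adjusted p = 0.000739) and Sqle, squalene epoxidase, one of -0.72 ± 0.09 (SE, adjusted p = 0.000104). Ebp, a sterol isomerase, was the 1 member that rose, by 0.64. In the lacZ step 9 of the 30 fell and 1 rose, with a median of -0.22, and the difference of the steps called 1 of the 30, Sqle, at -0.72. Over the course in MGT cultures Cyp51 had mean levels of -0.46 on day 3, -1.20 on day 5, then -0.06 by day 7, -0.37 by day 10 and lastly -1.30 by day 14.

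The list of fibroblast identity had 10 falls and 3 rises among 27 genes (median -0.12), and the matrix list 8 falls and 3 rises among 32 (median -0.15), against 14.9% of all genes tested called lower and 19% higher. In all 48.1% of the identity list and 34.4% of the matrix list were called in either direction, against 33.8% of all genes tested. Col1a1, the main chain of type I collagen, had levels of 6.28 and 5.99 on the day 14 MGT arrays, against 7.62 and 7.39 on the day 10 MGT arrays. The fall in Col1a1 was -1.38 ± 0.28 (SE, adjusted p = 0.00274). In lacZ cultures it stood at 7.47 and 8.75 on the day 14 lacZ arrays, against 7.69 and 7.41 on the day 10 lacZ arrays, with the 2 day 14 lacZ arrays far apart, and the difference of the steps was -1.93 ± 0.39 (SE, adjusted p = 0.0307). Its partner chain Col1a2 fell by 0.47, whereas Col3a1, type III collagen, had a difference of 0.02 ± 0.14 (SE, adjusted p = 0.914), whose sign turned under 4 alternatives. Lum, lumican, a proteoglycan that spaces collagen fibrils, had levels of 0.61 and 0.85 on the day 14 MGT arrays, against 1.99 and 1.81 on the day 10 MGT arrays. The fall in Lum was -1.17 ± 0.11 (SE, adjusted p = 2.69e-05), and the difference of the steps was -0.78 ± 0.16 (SE, adjusted p = 0.0319). Dpt, dermatopontin, another protein of the fibril surface, had levels of -3.45 and -3.31 on the day 14 MGT arrays, against -2.49 and -2.28 on the day 10 MGT arrays. The fall in Dpt was -1.001 ± 0.10 (SE, adjusted p = 3.81e-05), and the gene fell by 0.93 in the lacZ step as well. Twist1, a regulator of mesenchymal cells, fell by 0.72 and Dcn, decorin, by 0.66. Fbn2, the fibrillin of developing tissue, fell by 1.20 with a difference of the steps of -0.87 ± 0.17 (SE, adjusted p = 0.0276), and Vcan, versican, fell by 0.61. Postn, periostin, a mark of activated fibroblasts, had a difference of -0.22 ± 0.12 (SE, adjusted p = 0.187) and was not called. Spp1, osteopontin, which macrophages make as well, rose by 1.63 in MGT and 2.24 in lacZ cultures, and Timp1, an inhibitor of matrix proteases, by 0.52 and 0.69. In the lacZ step 5 of the 27 identity genes rose and 5 fell, and 6 of the 32 matrix genes rose and 3 fell. The difference of the steps called 4 of the 27 and 3 of the 32 with the lower value in the MGT step, and 1 and 0 with the higher.

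Among 14 smooth muscle genes 2 rose and 1 fell. Myh11, smooth muscle myosin, rose by 0.84 ± 0.21 (SE, adjusted p = 0.00946) and Cnn1, calponin 1, by 0.67 ± 0.09 (SE, adjusted p = 0.000188), and Cald1, caldesmon, fell by 0.38, while Acta2, smooth muscle actin, had a difference of -0.19 ± 0.12 (SE, adjusted p = 0.231). For Cnn1 the difference of the steps was called, at 0.79 ± 0.12 (SE, adjusted p = 0.00989).

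Of 30 measured Wnt pathway genes 10 fell and 2 rose, with a median of -0.31, against 14.9% of all genes tested called lower and 19% higher, and the lacZ step gave 5 falls, 4 rises and a median of 0.17. Notum, a secreted enzyme that inactivates Wnt ligands and is itself induced by the pathway, had levels of 3.098 and 3.52 on the day 14 MGT arrays, against 4.81 and 4.76 on the day 10 MGT arrays. The fall in Notum was -1.47 ± 0.17 (SE, adjusted p = 7.31e-05). Nkd1, a feedback inhibitor inside the cell, had levels of 1.79 and 1.70 on the day 14 MGT arrays, against 2.69 and 2.60 on the day 10 MGT arrays. The fall in Nkd1 was -0.90 ± 0.08 (SE, adjusted p = 1.18e-05), its call was lost over the mean of its probes, and the difference of the steps was -0.53 ± 0.11 (SE, adjusted p = 0.0318). Axin2, the most used target gene of the pathway, had a difference of -0.64 ± 0.33 (SE, adjusted p = 0.15) and was not called. The receptors Fzd1, Fzd2 and Fzd4 fell by 0.37, 0.32 and 0.49. Sfrp4, a secreted antagonist, had levels of -1.79 and -2.11 on the day 14 MGT arrays, against -3.43 and -3.48 on the day 10 MGT arrays. The rise in Sfrp4 was 1.50 ± 0.23 (SE, adjusted p = 0.00055), and the gene rose by 1.06 in lacZ cultures. Of 16 Notch pathway genes 4 rose and 4 fell, among them Lfng, a glycosyltransferase that tunes the receptors, up by 1.77, Notch4 up by 0.68 and Notch3 and Jag1 down by 0.48 and 0.45. Of 19 TGF-beta pathway genes 3 rose and 5 fell: Tgfbi, a matrix protein induced by the ligand, rose by 1.55, Tgfbr2 and Tgfb1, a receptor and a ligand, by 0.51 and 0.42, and Smad7, the feedback inhibitor, fell by 0.50.

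Of 50 cell cycle and mitosis genes 17 rose and 3 fell, with a median of 0.29, and the lacZ step gave 4 rises, 0 falls and a median of 0.13. Over all genes tested 19% were called higher in the MGT step and 15.9% in the lacZ step, and the difference of the steps called 0 of the 50 genes in limma. Ccnd1, cyclin D1, which carries cells into the cycle, had levels of 4.04 and 4.15 on the day 14 MGT arrays, against 3.14 and 3.21 on the day 10 MGT arrays. The rise in Ccnd1 was 0.92 ± 0.08 (SE, adjusted p = 9.91e-06), and the gene rose by 0.89 in lacZ cultures. Mki67, the proliferation antigen Ki-67, had levels of 3.19 and 3.43 on the day 14 MGT arrays, against 2.58 and 2.62 on the day 10 MGT arrays. The rise in Mki67 was 0.71 ± 0.21 (SE, adjusted p = 0.0217), and its call was lost without 1 array in 3 of the 4 cases (adjusted p up to 0.139). Ube2c, a ubiquitin enzyme of mitotic exit, rose by 0.88 ± 0.15 (SE, adjusted p = 0.000876) and Ccnb2, cyclin B2, by 0.81. Aurkb, a kinase of chromosome segregation, was among the 3 called lower, with a difference of -0.97 ± 0.22 (SE, adjusted p = 0.00541). Cdk1, the mitotic kinase, was called lower at -0.25 through its brightest probe, while its other 2 probes gave 1.35 and -0.63, so no direction is given for the gene. Of 16 measured DNA-replication histone genes 8 rose and 0 fell, with a median of 0.50, and the lacZ step gave 9 rises and a median of 0.55. H3c4 and H3c15, genes of histone H3, rose by 0.78 ± 0.06 (SE, adjusted p = 7.83e-06) and 0.69 ± 0.11 (SE, adjusted p = 0.000802); these genes are close copies, so probes may read more than 1 of them. Uhrf1, which carries DNA methylation through replication, rose by 0.67. The letters TTTGAA, the core of a cell cycle promoter element, stood on either strand in 18 of the 41 members with a RefSeq promoter window (43.9%). They stood in 6 of the 15 of these members that were called higher (40%). The share was 20.2% of all genes with a window and 15.4% of the genes tested that have one. The letters CCAAT stood in 30 of these 41 members (73.2%) and in 9 of the 15 called higher (60%), against 41.1% of all genes with a window. Of the other motifs searched on both strands, AGAGGAAG, a site of PU.1, stood in 2 of 13 macrophage markers with a window (15.4%). It stood in 0 of the 8 called higher, against 5.22% of all genes with a window. The sterol element TCACNCCAC stood in 1 of 20 genes of cholesterol and lipid synthesis with a window (5%), against 1.44% of all genes with a window. Among 24 cell cycle inhibitors and p53 targets 3 rose and 6 fell, with Cdkn2a, which encodes p16 and p19ARF, up by 1.22 ± 0.12 (SE, adjusted p = 3.64e-05) and Cdkn1c, p57, down by 0.81.

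Of 33 inflammatory genes 5 rose and 9 fell, with a median of -0.15, and the lacZ step gave 8 rises and 7 falls. Cxcl5, a chemokine for neutrophils, had levels of -4.42 and -4.42 on the day 14 MGT arrays, against -2.67 and -2.50 on the day 10 MGT arrays. The fall in Cxcl5 was -1.84 ± 0.24 (SE, adjusted p = 0.000197), and Saa1, serum amyloid A1, fell by 1.34. Ccl8, a chemokine for monocytes, rose by 1.56 ± 0.44 (SE, adjusted p = 0.0162). Of 33 interferon genes 8 rose and 1 fell, with a median of 0.20 that turned negative under 1 alternative; Oas3 and Ifi27l2a rose by 1.60 and 1.23, and Isg15 had a difference of -0.14 ± 0.15 (SE, adjusted p = 0.505). Of 25 genes of the unfolded protein and amino acid stress responses 4 rose and 9 fell, among them Slc7a11, the cystine importer, which fell by 0.80, and Sesn2 and Mthfd2, which fell by 0.60 and 0.49. Of 17 clock genes 7 fell and 3 rose, with Hlf and Cry1 down by 0.69 and 0.62 and Arntl up by 0.53. Of 25 chromatin regulators 7 fell and 1 rose, with Ep300 and Kdm6b down by 0.50 and 0.48; Kdm5b was called lower at -0.44 through its brightest probe, with another at -0.11 that was not called. Of 30 splicing factors 5 rose and 7 fell, with Rbfox2 and Rbfox1 down by 0.71 and 0.61 through their brightest probes, while their other probes gave -0.39 and -0.72 and were not called. Mbnl3 was called lower at -0.61 through its brightest probe, and another gave -0.20, which was not called. Of 37 ribosomal protein genes 6 rose and 2 fell, and the sign of their median turned under 5 alternatives. Rpl7, called lower at -0.59, had another probe called higher at 0.43. The heat shock list had 5 rises and 3 falls, and for Hspa8, called lower at -0.76, the other 2 probes were called higher at 0.44 and 0.18. The immediate early list had 2 rises and 5 falls, the glucocorticoid list 3 and 4, the fat cell list 5 and 0 and the cartilage and bone list 2 and 3.

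The 12 largest falls belong to no one list, and Vmn2r69, Ube2d2b and Pea15b are members of families of near copies, so their probes may read more than 1 gene. Cd244a, a receptor of natural killer cells, had levels of 1.46 and 1.39 on the day 14 MGT arrays, against 3.62 and 3.80 on the day 10 MGT arrays. The fall in Cd244a was -2.28 ± 0.23 (SE, adjusted p = 3.22e-05), with -1.91 (adjusted p = 0.000177) in the lacZ step. Lingo1, a membrane protein of neurons, had levels of -3.38 and -3.40 on the day 14 MGT arrays, against -1.11 and -1.21 on the day 10 MGT arrays. The fall in Lingo1 was -2.23 ± 0.14 (SE, adjusted p = 1.76e-06), and the difference of the steps was -1.61 ± 0.19 (SE, adjusted p = 0.00325). Ephx3, an epoxide hydrolase, had levels of -1.52 and -1.38 on the day 14 MGT arrays, against 0.97 and 0.30 on the day 10 MGT arrays. The fall in Ephx3 was -2.09 ± 0.33 (SE, adjusted p = 0.000566). Zfp57, a zinc finger protein that guards genomic imprints, fell by 2.52 through its brightest probe and by 0.63 through another. Tox4, a chromatin-bound protein, had a difference of -2.08 through its brightest probe and of -0.01 through another, so no direction is given for the gene. The others among the 12 were Ppp1r14bl, Mospd4, Pea15b, Ube2d2b, Vmn2r69, Hyal6 and Cbln2, with falls of 2.07 to 2.53; another probe of Ube2d2b gave -0.98 and was not called. Of genes below background on both arrays of 1 group, the largest rises were those of Treml2, Napsa, Gsdma and Serpinb10, at least 4.67-fold, 4.63-fold, 4.02-fold and 3.76-fold higher. The largest falls of that kind were those of Vmn2r72, Klrg1, Slc26a9 and Ctcflos, at least 26.5-fold, 15.4-fold, 9.47-fold and 8.14-fold lower. Gsdma had levels of -4.88 and -1.35 on the day 14 MGT arrays, which lie far apart. Its difference lay between 0.88 and 4.40 over the alternatives, and its call was lost under 4 of them (adjusted p up to 0.192). Slc26a9 had levels of -1.62 and -5.22 on the day 10 MGT arrays, its difference lay between -5.77 and -2.05, and its call was lost under 2 alternatives (up to 0.0943). Each bound sets the bright group's mean against the lowest signal well above background on the arrays where the probe was dim.

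The largest differences of the steps of each sign, among genes above background on all 8 arrays, follow. Ankrd23, a titin-binding protein of the sarcomere's stretch response, had levels of 0.89 and 0.86 on the day 14 MGT arrays, against -0.28 and -0.40 on the day 10 MGT arrays. The rise in Ankrd23 was 1.21 ± 0.07 (SE, adjusted p = 1.76e-06), with a lacZ difference of -0.18 and a difference of the steps of 1.39 ± 0.10 (SE, adjusted p = 3.26e-05). Lamc3, a laminin chain, rose by 1.38 ± 0.20 (SE, adjusted p = 0.000384), with a difference of the steps of 1.66 ± 0.29 (SE, adjusted p = 0.0157). Mcpt4, a mast cell protease, rose by 1.19 ± 0.21 (SE, adjusted p = 0.00132), with a difference of the steps of 1.58 ± 0.30 (SE, adjusted p = 0.0235). Plin4, a coat protein of lipid droplets, Pgm5, a protein of cell adhesions in muscle, and Kcnmb1, a potassium channel subunit of smooth muscle, had differences of the steps of 1.31, 1.30 and 1.28. On the low side, besides Hopx, Col1a1 and Zfp57, stood Ephb1, an ephrin receptor, at -2.15, and Rps24-ps3, a ribosomal pseudogene whose probe may read its parent gene, at -1.93. Anp32a, a nuclear phosphoprotein, was on the low side at -2.07 through its brightest probe, but another probe gave -0.20 in the MGT step against -1.47. Of the 335 genes called in the difference, 165 were called in the MGT step alone, 76 in the lacZ step alone and 94 in both, 62 of these with opposite signs; 50 of the 335 were below background on both arrays of at least 1 of the 4 groups, so that their difference has no exact size. The count moved whichever 1 of the 8 arrays was left out, MGT or lacZ, and the cause was not tested. With only the 8 arrays of the comparison in the fit it was 0, where 1452 genes had an unadjusted p under 0.05.

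The step before, from MGT day 7 to day 10 on 1 slide, called 824 genes (4.56%), 400 higher (2.22%) and 424 lower (2.35%). The 2 steps share the day 10 arrays, so their values are given side by side only. C1qb differed by 1.02 (adjusted p = 0.25) from day 7 to day 10 and by 2.65 from day 10 to day 14. Myh6 differed by 0.87 (adjusted p = 0.00362) in the earlier step and by 0.00 in the later. Cox7a1 differed by 1.06 (adjusted p = 0.00161) and then by 1.64, and Pln by 1.50 (adjusted p = 0.162) and then by 1.57. Col1a1 differed by 0.13 (adjusted p = 0.891) and then by -1.38, and Nppa by -0.24 (adjusted p = 0.45) and then by -0.94. Ankrd37 differed by 0.54 (adjusted p = 0.185) and then by 2.15, Ccnd1 by 1.05 (adjusted p = 1.21e-05) and then by 0.92, and Cyp51 by -0.30 (adjusted p = 0.505) and then by -0.94. Of the 19 macrophage markers 2 rose in the earlier step and 14 in the later, of the 50 cell cycle genes 1 rose and 2 fell in the earlier step against 17 and 3 in the later, and of the 36 sarcomere genes 5 rose and 1 fell in the earlier step against 2 and 6.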

How the data were processed

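RNA of cardiac fibroblast cultures was labelled with Cy3 and read on 1-colour Agilent arrays. The deposited files hold Feature Extraction (10.7.3.1, per the file headers) scanner output, whose processed signal is an intensity on a linear scale, background-subtracted by that software. The authors also deposited a table of processed signal values in linear units, used here only as an alternative, with its centring not stated; the submitters' processing notes name limma. The deposited intensity was taken to log2 and centred, array by array, on the 75th percentile of all spots other than controls. Probes not well above background on both arrays of any group were left out (16883, with 38798 kept), and the brightest kept probe stood for each gene. Probes were named by RefSeq accession (26050), symbol (3205) or synonym (930), and 25496 were unnamed. limma 3.58.1 in R 4.3.3 was fitted to 11 group means over 22 arrays, with Benjamini-Hochberg adjustment over 18054 genes and a threshold of 0.05; that 2 arrays stand in each group limits the precision. Tested on simulated data (17920 genes, of which 200 changed), the MGT step recovered 39.5%, 73% and 87% of changes of 0.5, 1 and 2 log2 units. The difference of the steps recovered 9%, 58.5% and 80.5%, with 10% of its calls at 0.5 false. The MGT step itself called 33.8% of genes, a far larger share than was changed in the simulation, and the adjustment depends on this share. The simulated noise had 1 SD per gene for all groups and no slide effect. These rates therefore do not carry over to the comparisons above. The text names the transgene's factors, the 12 largest rises and falls, the 4 largest bounded ones, up to 4 called members of each list, the 6 largest differences of the steps of each sign and a few marker genes; other genes were named after their values were seen. Members and lists were chosen with earlier results of these data known. List members below background in both MGT groups are counted but not named. A few genes that this rule names are not reported here.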

Additional observations from a re-analysis of the deposited data

Results flagged for a closer look

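In the difference of the steps vector and slide cannot be told apart, since day 14 MGT lay on slide 4 and day 14 lacZ on slide 3. The test of this difference called 6 genes with array weights and 0 with only the arrays compared in the fit. In the main fit it called 335 genes, whose day 10 to day 14 step differed between MGT and lacZ cultures. Of these, 50 were below background on both arrays of at least 1 of the 4 groups. Among the genes named above that were not, the difference of the steps on the log2 scale was negative for Zfp57 (-2.70), Ephb1 (-2.15), Anp32a (-2.07), Hopx (-2.05), Col1a1 (-1.93), Rps24-ps3 (-1.93), Tox4 (-1.86), Nppa (-1.68) and Lingo1 (-1.61). It was also negative for Hspa8 (-1.21), Fbn2 (-0.87), Dcn (-0.86), Lum (-0.78), Lyz1 (-1.28), Sqle (-0.72), Eno1 (-0.72) and Nkd1 (-0.53). It was positive for Gja1 (0.63), Myoz2 (0.71), Cnn1 (0.79), Tnnt2 (0.80), Kcnmb1 (1.28), Pgm5 (1.30), Plin4 (1.31), Ankrd23 (1.39), Mcpt4 (1.58) and Lamc3 (1.66). For Anp32a, Tox4, Zfp57 and Hspa8 the probes of the gene gave different values, as described with them. Lingo1 was above background on 1 of the 2 day 14 lacZ arrays. Whether the genes named here keep their call in the difference of the steps under the alternatives was not tested gene by gene.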

How the results depend on the processing

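Of 171 genes named above as called in the MGT step, between 117 and 137 kept call and direction when 1 of the 4 arrays was left out: 137 without the first day 14 array (adjusted p of the lost up to 0.400), 117 without the second (up to 0.200), 120 without the first day 10 array (up to 0.269) and 134 without the second (up to 0.266). Calls lost whichever array was left out were those of Car9, Col1a2, Ep300, Fzd2, Gata4, Gpr34, Kcnmb1, Kdm5b, Ms4a4a, Myod1, P4ha1, Pgm5, Pln, Ptprc, Smyd1, Srf, Tgfb1, Tnnc1 and Tnni2, while C1qb, Cox7a1, Nppa, Hopx, Col1a1 and Ankrd37 lost theirs under none of the 15 alternatives. Over the mean of their probes Atp2a2, Fzd2, Hspa8, Kdm5b, Mbnl3, Nkd1, Pdlim5, Ppargc1a, Rpl7, Smyd1, Srf, Tbx20 and Vegfa lost theirs. Under the other alternatives between 138 and 171 of the 171 kept both, or 159 of 159 with probes above background on every array compared. The counts of list members called moved too, in each list below by more, relative to their size, than the list median. The medians are therefore no measure of how firm these counts are. Over the 15 alternatives the list median lay between 1.48 and 1.72 for macrophage markers and between 0.25 and 0.46 for hypoxia. It lay between 0.20 and 0.34 for cell cycle, -0.48 and -0.36 for cholesterol and lipid synthesis and -0.40 and -0.26 for cardiac transcription factors. The MGT count was 1180 (772 higher, 408 lower) at a log2 size of at least 1 and 9203 (4084 lower) with array weights, the higher count was 2168 with normexp and the lower count 4418 with no filter on dim probes. With 1 array left out the MGT count was 3300 to 3903, with 1841 to 2217 higher and 1459 to 1756 lower. The share called higher, 56.02% as reported, was 44.71% with the percentile over always-detected probes (2781 higher, 3439 lower) and 42.85% with no filter (3312 and 4418). For lacZ this share was 59.19% as reported, 44.71% with quantile normalization and 38.99% with that percentile. The lacZ count was 743 at a log2 size of 1, 85 with array weights and 0 in limma with only its 4 arrays in the fit, where 1810 genes had an unadjusted p under 0.05; without 1 array it was 3518 to 6833. The difference of the steps gave 134 at a log2 size of 1, 179 with median centring, 160 with the deposited table, 6 with array weights, 0 with only its 8 arrays (1452 at an unadjusted p under 0.05) and 115 to 4004 with 1 array left out. The day 7 to 10 step gave 205 at a log2 size of 1, 422 with normexp, 515 with median centring, 468 with the deposited table, 2 with only its arrays, 2206 with array weights and 280 to 420 with 1 array left out. The cause of these moves was not tested. Signs changed for Myh6 (0.11 quantile, 0.024 median centring, 0.13 mean of probes, 0.14 deposited table, -0.085 to 0.080 with 1 array left out), Tnnt2 (0.25 quantile, 0.025 median centring, -0.033 to 0.031 with 1 left out) and Col3a1 (-0.056 quantile, -0.033 always-detected percentile, -0.064 to 0.11 with 1 left out). They also changed for Acta2 (0.038 quantile), Cdk1 (0.16), Ldb3 (0.013) and Tpm1 (0.038) with the mean of probes, Kcnj11 (-0.049 normexp, -0.47 no filter) and Ddit4 (-0.090 to 0.52 with 1 array left out). Equal replicate numbers did not pair the arrays (correlation of deviations 0.03 between MGT day 14 and day 10); with the replicate block the MGT count was 6080. The slide as a block could not be run, since day 14 MGT has a slide of its own. Signal over background limits the genes below it at day 10.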

Other observations

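Probes for long non-coding RNA regions, which carry coordinates but no gene name, were tested apart from the genes' own list. Of 9191 kept, 5297 were well above background on all 4 arrays (57.6%). Of these, 500 were called higher (9.44%) and 667 lower (12.6%) at day 14 in MGT cultures. Over all 9191 the balance was the opposite, with 1000 called higher (10.9%) and 769 lower (8.37%), against 19% and 14.9% of the genes tested. The lacZ step called 466 of the 9191 higher (5.07%) and 971 lower (10.6%), against 15.9% and 10.9% of the genes tested. A further 2159 of the 9191 (23.5%) passed from below background on both day 10 arrays to above it on both day 14 arrays. The opposite way went 16. Of 18054 genes 1389 and 14 did so. The region probe at chr6:4841700-4847400 (mm9, reverse strand) had levels of 1.82 and 2.02 on the day 14 MGT arrays, against -0.32 and -0.45 on the day 10 MGT arrays, a difference of 2.31 (limma adjusted p = 0.00353). That at chr19:29969050-29980675 (forward strand) had levels of -4.68 and -4.95 at day 14, against -0.89 and -1.15 at day 10, a difference of -3.79, and the lacZ step gave -2.10. That at chr16:11024315-11055740 (forward strand) had a difference of -3.68 in the MGT step and -2.90 in the lacZ step. These 3 were chosen after their values were seen.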
